A study of Mus musculus with 6 samples.

Results

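The basement membrane is the thin sheet of matrix that surrounds every brain vessel, and 34 genes of its proteins and receptors were followed here through the cells that border it. The genes were taken by symbol from a fixed list, out of 32285 genes in the files: 5 chains of collagen IV, 9 laminin chains, 6 linkers, proteoglycans or other collagens, 3 matricellular or provisional matrix proteins, 6 integrin α chains, 4 integrin β chains and dystroglycan. Collagen IV and laminin each form a network of 3-chain molecules, the nidogens and the heparan sulphate proteoglycans tie the networks together, and cells hold on to them through integrins, which are αβ pairs, and through dystroglycan. In brain vessels the sheet lies between endothelium and pericytes on the inner side and the end-feet of astrocytes on the outer side, so its chains may come from each of the 3 cell types.

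The study sorted endothelial cells and neural stem and progenitor cells, both without the leukocyte marker CD45, from adult mouse cortex and subventricular zone, and sequenced single-cell 3′ RNA in 6 libraries, 2 per group. All mice were 8 to 12 weeks old. The control group is labelled Cx43flox/flox, that is, with floxed alleles of connexin 43 (gene Gja1), the group called GlastiKO here is labelled Cx43GlastiKO, and the group called ECiKO is labelled Cx43ECiKO. The labels give no Cre line, inducing agent or number of animals per library, and tissue was digested for 30 minutes at 37 °C. They call the libraries biological replicates without naming separate animals, so p-values measure the spread between these libraries, which may be technical.

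Of 7433 deposited barcodes, 6323 had at least 300 genes and at most 20% mitochondrial UMIs (unique molecules), and 93.3% of these were assigned to 1 of 12 classes by marker genes that include none of the 34. The libraries numbered 1 held 391 to 728 endothelial-like cells and 2 to 6 astroglial-like cells, and the libraries numbered 2 held 23 to 65 and 168 to 411. Pericyte-like cells, which the sort did not aim for, numbered 6 to 32 per library. UMIs were summed per library and class wherever a class had at least 10 cells. This gave 6 endothelial-like sums (39334 to 2633233 UMIs), 5 pericyte-like sums, without ECiKO replicate 1, and 3 astroglial-like sums, all from libraries numbered 2. Astroglial-like cells can be astrocytes or neural stem cells, which share the markers. Levels are in CPM, the UMIs of a gene scaled to the total of its class and library. Check markers kept out of the gate were low in the other classes when UMIs were pooled over libraries. In pericyte-like cells the 6 endothelial check markers stood at 1.24% of their endothelial-like level and the 5 astroglial ones at 1.12% of their astroglial-like level. No other pooled value among the 3 classes passed 0.214%. Single endothelial-like sums reached 103 CPM of astroglial and 229 CPM of pericyte check markers, whose own classes held 7301 and 20460 CPM. Oligodendrocyte markers stood at 290 to 915 CPM in endothelial-like sums of libraries numbered 2. They stood at 19.85 to 23.92 CPM in those numbered 1. Pairs of libraries shared at most 1 barcode. The targeted gene went against the labels: Gja1 was at 92.7 and 109 CPM in control endothelial-like cells and at 236 and 203 CPM in those of the libraries labelled ECiKO, and in astroglial-like cells it was at 2558 CPM in control and 2445 CPM in the library labelled GlastiKO. The labels do not say which part of Gja1 was removed, and a 3′ count can miss a deletion upstream.

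Matrix chains and receptors of the list were spread over the 3 classes, with paralogous chains often highest in different classes. Of the 34 genes, 23 had enough UMIs to be tested, among 5404 genes. Of these 23, 9 were higher in pericyte-like cells than in both other classes (Col4a1, Lama2, Lamb1, Lamc1, Lamc3, Nid1, Itga1, Itgb1 and Itgb5), a pattern that 13.7% of all tested genes showed. In endothelial-like cells 6 were higher than in both others (Lama5, Nid2, Hspg2, Agrn, Fn1 and Itga6), beside 16.5% of all genes, and in astroglial-like cells 2 were (Itgav and Itgb8), beside 21.2%. Col4a2, Lama4, Lamb2 and Sparc were higher in both vascular classes than in astroglial-like cells without a called difference between the vascular classes (6.72% of all genes). Itga7 and Dag1 were higher in pericyte-like and astroglial-like cells than in endothelial-like cells without a called difference between those (4.5% of all genes). None of the 23 was higher in endothelial-like and astroglial-like cells than in pericyte-like cells without a called difference between those (7.11% of all genes), and none fell outside these patterns (30.3% of all genes).

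**Figure D1:**
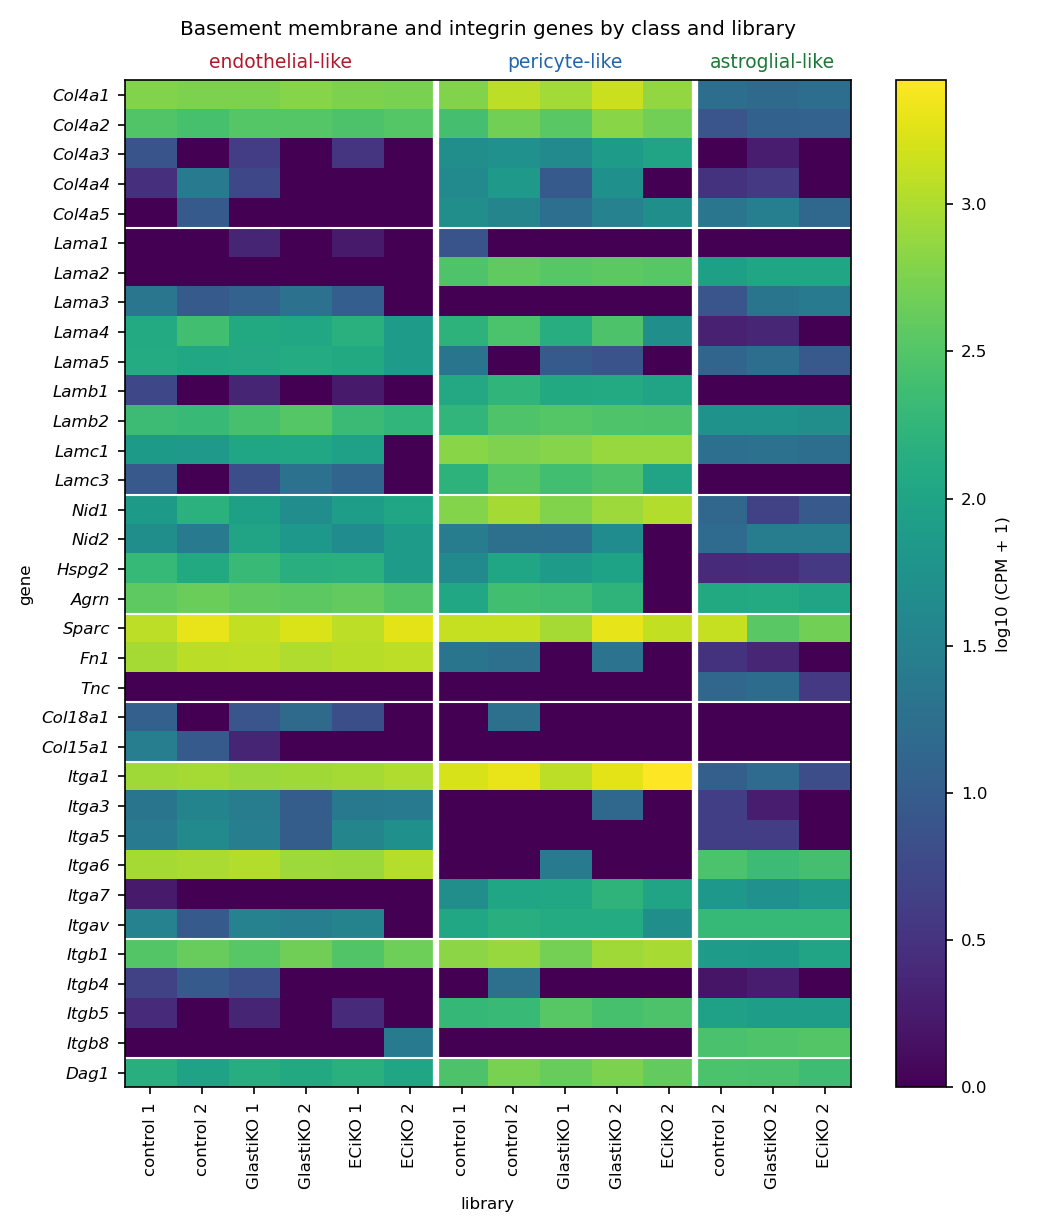
Level of the 34 genes (rows, grouped by role with white lines) in each library (columns) of the endothelial-like, pericyte-like and astroglial-like classes, coloured by log10 of CPM + 1. Col4a1, Col4a2 and Itga1 are bright in both vascular classes, Fn1 and Itga6 are dark in the pericyte-like libraries, and Itgb8 is bright in the astroglial-like libraries.

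Each comparison of classes was tested in 1 fit over the 14 sums, with the library as a block, by edgeR's quasi-likelihood test with Benjamini-Hochberg adjustment over all tested genes. Because the spread is shared across genes, a p-value says little about the libraries of 1 gene alone. Endothelial-like against pericyte-like cells gave 6 genes of the list higher and 12 lower, where 29.5% of all genes were called higher and 23.2% lower (52.7% either way). Endothelial-like against astroglial-like cells gave 17 higher and 6 lower (28.6% and 30% of all genes, 58.6% either way). Pericyte-like against astroglial-like cells gave 15 higher and 3 lower (26.6% and 33.2% of all genes, 59.9% either way). The median log2 difference over the list was -0.60, 1.94 and 1.97 in these comparisons, beside 0.10, -0.01 and -0.14 over all genes. With genes at 0 in a class set to the bound that 3 UMIs allow, the medians were -0.69 (22 genes), 1.94 (22 genes) and 1.97 (23 genes). Over the libraries that hold both classes, the libraries of 4 list genes stood higher and those of 11 lower without overlap for endothelial against pericyte, beside 31.6% of all genes either way. These counts were 13 and 6 for endothelial against astroglial (60.1% of all genes) and 14 and 4 for pericyte against astroglial (55.3% of all genes).

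Collagen IV was made by both vascular classes, and its main chains were far lower in astroglial-like cells. The ubiquitous network is built from α1 and α2 chains, whose genes Col4a1 and Col4a2 lie head to head on chromosome 8 of mm10 (11198423 to 11312826 on the minus strand and 11312805 to 11449287 on the plus strand). The promoter windows of the pair are shown because the levels of these genes moved together over the classes. Each window runs from 250 bases before to 50 bases after the start site (RefSeq, GRCm38.p6). Capitals mark the CCAAT box core (CCAAT) and the GC box core (GGGCGG) on either strand.
Col4a1: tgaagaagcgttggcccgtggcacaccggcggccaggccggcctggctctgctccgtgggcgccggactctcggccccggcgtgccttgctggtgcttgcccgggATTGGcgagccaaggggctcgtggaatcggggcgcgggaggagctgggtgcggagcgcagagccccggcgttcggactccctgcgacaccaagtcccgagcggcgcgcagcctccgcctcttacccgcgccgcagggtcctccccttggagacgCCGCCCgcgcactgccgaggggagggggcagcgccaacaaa
Col4a2: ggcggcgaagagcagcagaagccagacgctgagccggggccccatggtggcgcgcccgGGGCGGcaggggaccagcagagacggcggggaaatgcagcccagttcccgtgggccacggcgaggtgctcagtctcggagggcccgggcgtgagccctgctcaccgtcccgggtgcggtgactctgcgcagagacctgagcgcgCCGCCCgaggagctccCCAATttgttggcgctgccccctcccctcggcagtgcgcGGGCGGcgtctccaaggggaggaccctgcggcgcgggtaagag
The windows lie at chr8:11312777-11313076 on the minus strand and chr8:11312555-11312854 on the plus strand. They share 78 bases, and the start sites are 21 bases apart. The CCAAT core occurred 1 time in each window, both times on the plus strand of the chromosome, and GGGCGG occurred 1 time in the Col4a1 window and 3 times in the Col4a2 window. Matches within a window did not overlap. The GC box core of the Col4a1 window, at 11312812 to 11312817, lies in the shared bases and is also 1 of the 3 counted for Col4a2. Of 32851 mouse promoter windows of the same length, 37.4% held a CCAAT core and 35.7% a GC box core. A TATA box core (TATAAA), which 13.6% of windows held, was in neither. These matches describe letters only.

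Col4a1 ranged from 534 to 627 CPM over the 6 endothelial-like sums, with a median of 559. In pericyte-like cells it was at 589 and 1188 CPM in the control libraries, 879 and 1414 CPM in GlastiKO and 732 CPM in ECiKO replicate 2. In astroglial-like cells it was at 16.3, 14.1 and 16.2 CPM in control, GlastiKO and ECiKO. Every vascular sum thus stood far above every astroglial-like one, while pericyte-like and endothelial-like libraries overlapped. The endothelial minus pericyte log2 difference of Col4a1 was -0.60 ± 0.198 (SE; edgeR adjusted p = 0.00548), the pericyte-like level being the higher one. That call was lost without GlastiKO replicate 2 (-0.41, edgeR adjusted p = 0.125) and without a filter on low counts (-0.51, edgeR adjusted p = 0.056). Against astroglial-like cells the endothelial-like difference was 5.07 ± 0.315 (edgeR adjusted p = 8.78e-57).

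Col4a2 followed the same order. It ranged from 268 to 332 CPM in endothelial-like cells (median 319), stood at 257 and 489 CPM in the control pericyte-like sums, 352 and 646 in GlastiKO and 488 in ECiKO, and at 7.06, 10.4 and 10.8 CPM in astroglial-like cells. The endothelial minus pericyte difference of -0.31 ± 0.199 did not pass (edgeR adjusted p = 0.189). Leaving out control replicate 1 brought it past the threshold (-0.54, edgeR adjusted p = 0.0473), as did a fit within the libraries numbered 2 (-0.78, edgeR adjusted p = 0.0159). Against astroglial-like cells Col4a2 was higher by 4.94 in endothelial-like and by 5.25 in pericyte-like cells. The ratio of Col4a1 to Col4a2 UMIs, counted at 3′ ends and not scaled to length, was 1.62 to 2.06 in endothelial-like, 1.5 to 2.5 in pericyte-like and 1.35 to 2.31 in astroglial-like sums. The intervals of these ratios overlapped between the classes.

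The rarer chains were too low to test. Col4a3 and Col4a4, neighbours on chromosome 1 that build the α3α4α5 network with the α5 chain, held 29 and 19 UMIs in the 5 pericyte-like sums (57.9 and 37.9 CPM), 26 and 15 UMIs in the far deeper endothelial-like sums (4.45 and 2.57 CPM) and 2 and 10 UMIs in astroglial-like cells. Col4a5 had 1 UMI in all endothelial-like cells but 17 in pericyte-like cells (33.9 CPM) and 107 in astroglial-like cells (24.2 CPM).

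The laminin α chains differed between the 3 classes. A laminin takes its receptor binding largely from its α chain. Laminin α2, whose gene Lama2 lies on chromosome 10 (26980036 to 27619758, minus strand), is the chain that binds dystroglycan most strongly. No Lama2 UMI was counted in any of the 6 endothelial-like sums. Pericyte-like cells held 298, 384, 343, 365 and 342 CPM (control, GlastiKO and ECiKO in replicate order) and astroglial-like cells 88, 103 and 105 CPM. The classes did not overlap. Over the 5 libraries with both classes Lama2 was at least 521-fold lower in endothelial-like than in pericyte-like cells, with 3 UMIs over these libraries as the floor, and at least 12.1-fold lower than in astroglial-like cells over the 3 libraries with both. Pericyte-like cells exceeded astroglial-like cells by 1.43 ± 0.263 (edgeR adjusted p = 2.35e-07).

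Laminin α4 and α5 are the chains of vascular laminins. Lama5 (chromosome 2, 180176373 to 180225859) was the chain of endothelial-like cells: it ranged from 76.3 to 126 CPM there (median 117), against 20.3, 0, 8.38, 6.4 and 0 CPM in pericyte-like cells and 11.9, 16.3 and 8.08 CPM in astroglial-like cells. Every endothelial-like sum exceeded every other sum. The endothelial-like level was higher by 3.60 ± 0.481 than the pericyte-like one (edgeR adjusted p = 5.52e-13) and by 2.65 ± 0.374 than the astroglial-like one (edgeR adjusted p = 5.87e-12). Lama4 was shared: 76.3 to 243 CPM in endothelial-like cells (median 121), 162, 280, 134, 294 and 48.8 CPM in pericyte-like cells, and 1.09, 1.36 and 0 CPM in astroglial-like cells. Its endothelial minus pericyte difference was -0.47 ± 0.231 (edgeR adjusted p = 0.0732), which passed without GlastiKO replicate 1 (-0.65, edgeR adjusted p = 0.0386), and both vascular classes exceeded astroglial-like cells, by 6.73 and 7.21.

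The remaining α chains were too low to test. Lama3 had 90 UMIs in endothelial-like cells (15.4 CPM), 67 in astroglial-like cells (15.2 CPM) and 0 in pericyte-like cells, and Lama1 had 3, 0 and 1.

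The β1, γ1 and γ3 laminin chains were highest in pericyte-like cells, while β2 was shared. Lamb1 (chromosome 12) stood at 115, 175, 117, 122 and 97.6 CPM in pericyte-like cells, where 62 UMIs were counted. In endothelial-like cells 15 UMIs were counted in all, 12 of them in control replicate 1, and in astroglial-like cells none. Lamb1 was lower in endothelial-like than in pericyte-like cells by -5.38 ± 0.555 (edgeR adjusted p = 3.83e-21), and pericyte-like cells exceeded astroglial-like cells at least 195-fold. Of the 12 UMIs of control replicate 1, 11 came from the 33 cells with at least 2 of Plvap, Esm1 and Igfbp3 described further on. Without such cells the called difference between endothelial-like and astroglial-like cells fell from 3.98 to 2.31 and did not pass (edgeR adjusted p = 0.155). Nor did it pass without control replicate 1 (2.51, edgeR adjusted p = 0.124) or GlastiKO replicate 2 (4.13, edgeR adjusted p = 0.0687). It was also lost under the stricter gate (3.40, edgeR adjusted p = 0.107) and the looser gate (2.55, edgeR adjusted p = 0.059). A minimum of 20 cells lost it too (3.555, edgeR adjusted p = 0.0839). Within the libraries numbered 2 it was 0.05.

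Lamc1, the γ chain of most laminins, was at 650, 577, 620, 781 and 781 CPM in pericyte-like cells, 0 to 112 CPM in endothelial-like cells (median 81.3) and 16.9, 18.1 and 16.2 CPM in astroglial-like cells. The 0 is ECiKO replicate 2, the shallowest sum. Lamc1 was lower in endothelial-like than in pericyte-like cells by -2.90 ± 0.202 (edgeR adjusted p = 3.77e-45) and higher than in astroglial-like cells by 1.93. Lamc3 was at 162, 332, 243, 288 and 97.6 CPM in pericyte-like cells and at no more than 18.7 CPM in any endothelial-like sum, a difference of -4.73 ± 0.377 (edgeR adjusted p = 8.12e-35), and no UMI was counted in astroglial-like cells. Lamb2, the β chain of mature vessels, was at 178 to 332 CPM in endothelial-like and 176 to 327 CPM in pericyte-like cells, a difference of -0.03 with a 95% interval from -0.44 to 0.38. Both exceeded the 48.5 to 54 CPM of astroglial-like cells, by 1.94 and 1.97.

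**Figure D2:**
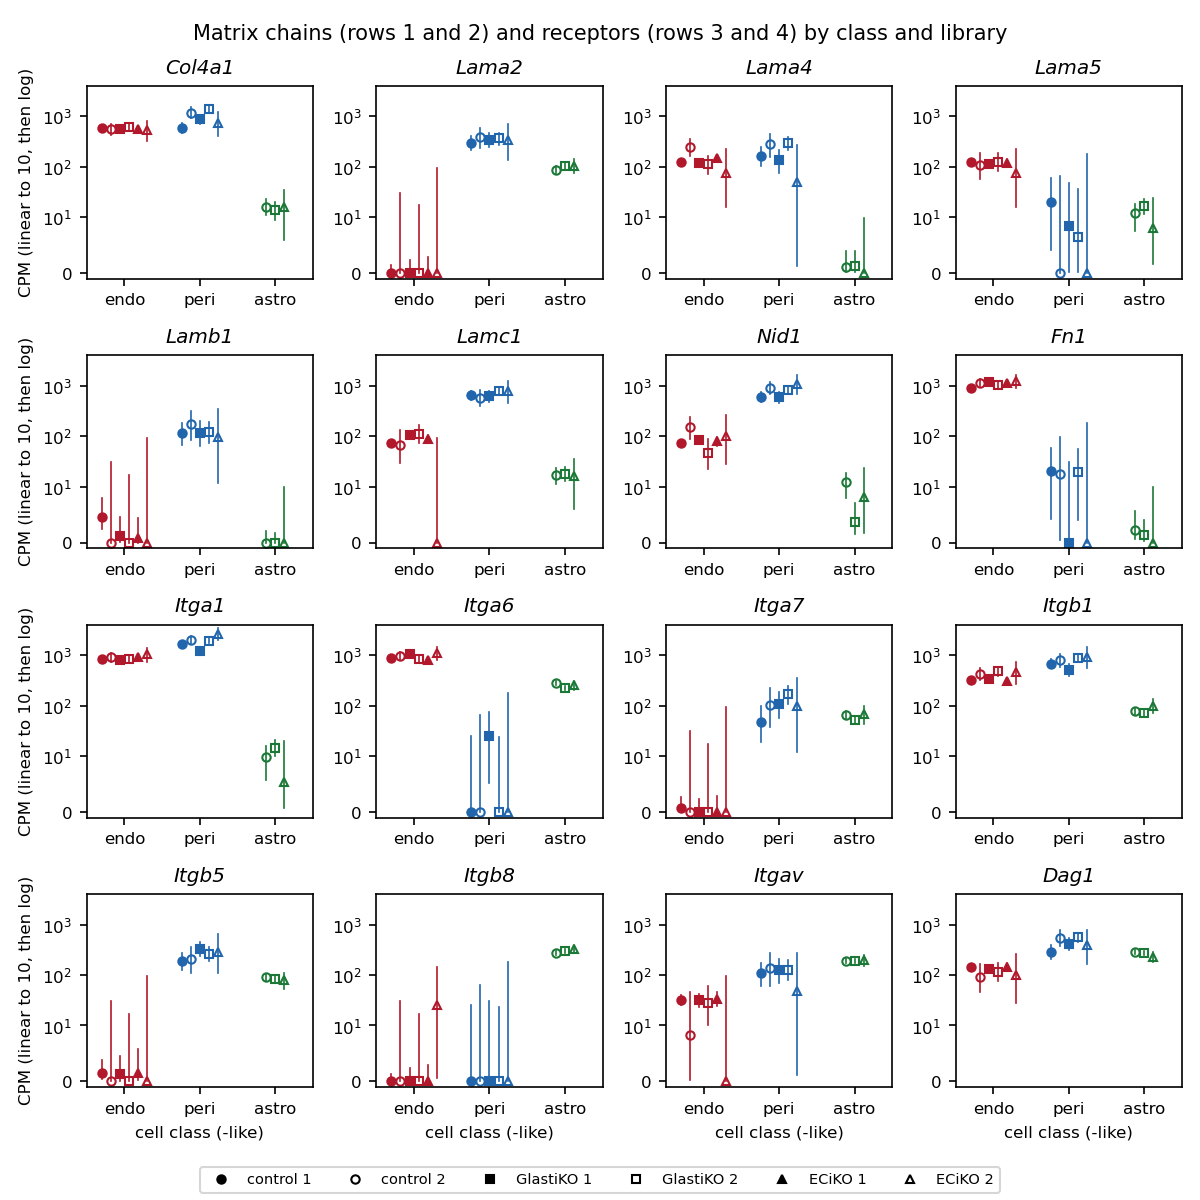
CPM of 8 matrix genes (rows 1 and 2) and 8 receptor genes (rows 3 and 4) in each library, by class (red endothelial-like, blue pericyte-like, green astroglial-like), with 95% exact Poisson intervals, which cover counting error only. The axis is linear up to 10 CPM and logarithmic above. Lama2 is at 0 in all 6 endothelial-like sums, Itga6 is at 0 in 4 of 5 pericyte-like sums, and Itgb8 has 1 UMI in both vascular classes together.

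The linkers split in the same manner. Nidogens join laminin to collagen IV, and Nid1 (chromosome 13, 13437551 to 13512269) belonged to pericyte-like cells: 602, 909, 586, 826 and 1074 CPM, against 46.8 to 151 CPM in endothelial-like cells (median 82.6) and 12.5, 3.63 and 8.08 CPM in astroglial-like cells. No library of one class overlapped another class. Nid1 was lower in endothelial-like than in pericyte-like cells by -3.02 ± 0.2 (edgeR adjusted p = 5.77e-50). Its paralogue Nid2 ran the other way, with 25.1 to 99.1 CPM in endothelial-like cells (median 57.6), 27.1, 17.5, 16.8, 44.8 and 0 CPM in pericyte-like cells and 14.7, 26.8 and 26.9 CPM in astroglial-like cells. Nid2 was higher in endothelial-like than in pericyte-like cells by 1.29 ± 0.429 (edgeR adjusted p = 0.00635) and than in astroglial-like cells by 1.01 ± 0.418 (edgeR adjusted p = 0.0292). The second call was lost without GlastiKO replicate 2 (0.68, edgeR adjusted p = 0.471), with DESeq2 (0.85, adjusted p = 0.161) and under a stricter gate (0.88, edgeR adjusted p = 0.0831).

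Both large heparan sulphate proteoglycans of the sheet were highest in endothelial-like cells. Hspg2, the gene of perlecan, ranged from 76.3 to 203 CPM there (median 144), against 40.6, 105, 75.4, 96 and 0 CPM in pericyte-like cells and 1.63, 1.81 and 2.69 CPM in astroglial-like cells. It exceeded pericyte-like cells by 1.28 ± 0.285 (edgeR adjusted p = 2.41e-05) and astroglial-like cells by 5.87. Within the libraries numbered 2 the first difference of 0.61 missed the threshold (edgeR adjusted p = 0.351). Agrn, the gene of agrin, which binds laminin and dystroglycan, was at 305 to 452 CPM in endothelial-like cells (median 376), 108, 245, 226, 166 and 0 CPM in pericyte-like cells and 119, 123 and 97 CPM in astroglial-like cells. Every endothelial-like sum exceeded every other sum. Endothelial-like cells exceeded pericyte-like cells by 1.27 ± 0.231 (edgeR adjusted p = 1.80e-07) and astroglial-like cells by 1.35 ± 0.243 (edgeR adjusted p = 8.79e-08). Pericyte-like minus astroglial-like was 0.08, with a sign that turned under DESeq2 (-0.09).

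Fibronectin, a provisional matrix protein read by α5β1 and αv integrins, was far higher in endothelial-like cells than in the other 2 classes. Fn1 ranged from 923 to 1220 CPM there (median 1150), against 20.3, 17.5, 0, 19.2 and 0 CPM in pericyte-like and 2.17, 1.36 and 0 CPM in astroglial-like cells. It exceeded pericyte-like cells by 6.31 ± 0.363 (edgeR adjusted p = 1.01e-65) and astroglial-like cells by 9.01 ± 0.405 (edgeR adjusted p = 1.76e-106). The 7 pericyte-like UMIs equal 1.32% of the endothelial-like level, beside 1.24% for the endothelial check markers in the same cells. The part of endothelial RNA in the called difference of 2.70 between pericyte-like and astroglial-like cells was not tested. That call was lost without GlastiKO replicate 2 (2.23, edgeR adjusted p = 0.112) and under the stricter gate (1.14, edgeR adjusted p = 0.628).

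Sparc, a collagen IV-binding matricellular protein, was abundant in the sums of all classes. These held 1193 to 1999 CPM in endothelial-like and 921 to 1997 CPM in pericyte-like cells. The control, GlastiKO and ECiKO astroglial-like sums held 1321, 351 and 488 CPM. Sparc was uneven within that class, in a split described further on. It stood at 1293 CPM in cells with Agt or Slc6a11 but no Lhx2, and at 110.5 CPM in cells with both kinds. It exceeded the astroglial-like level by 1.11 ± 0.254 in endothelial-like (edgeR adjusted p = 3.38e-05) and by 0.83 ± 0.263 in pericyte-like cells (edgeR adjusted p = 0.00351). Leaving out GlastiKO replicate 2 gave 0.63 (edgeR adjusted p = 0.0904) for the former and 0.12 (edgeR adjusted p = 0.795) for the latter, neither of which passed. Tnc is the gene of tenascin C, a matrix protein of astroglia and stem cell niches. It had 57 UMIs (12.9 CPM) in astroglial-like cells and none in either vascular class. With 3 UMIs as the floor, the shallow pericyte-like sums bound the difference at no more than 1.006-fold or above, so their 0 does not show absence. The endostatin-bearing collagens were low: Col18a1 had 48 endothelial-like UMIs, 1 in pericyte-like and 0 in astroglial-like cells, and Col15a1 had 76, 0 and 0.

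Among the receptors, the collagen-binding chain Itga1 was shared by the vascular classes and the laminin-binding chain Itga6 was not. Itga1, the α chain of the collagen IV receptor α1β1 (chromosome 13, 114953096 to 115101964), was at 805 to 1042 CPM in endothelial-like cells (median 879), at 1637, 2009, 1198, 1926 and 2635 CPM in pericyte-like cells and at 9.78, 14.5 and 5.39 CPM in astroglial-like cells. The classes did not overlap. It was lower in endothelial-like than in pericyte-like cells by -0.90 ± 0.199 (edgeR adjusted p = 2.30e-05), and both exceeded astroglial-like cells, by 6.03 and 6.93.

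Itga6, the α chain of the laminin receptors α6β1 and α6β4 (chromosome 2, 71745616 to 71858416), was at 800 to 1093 CPM in endothelial-like cells (median 930) and at 280, 220 and 256 CPM in astroglial-like cells. In pericyte-like cells 3 UMIs were counted, all in GlastiKO replicate 1. This is 0.65% of the endothelial-like level, below that of the endothelial check markers. Itga6 was higher in endothelial-like cells than in pericyte-like cells by 7.31 ± 0.423 (edgeR adjusted p = 9.41e-65) and than in astroglial-like cells by 1.55 ± 0.243 (edgeR adjusted p = 7.44e-10). Itga7, another laminin receptor chain that pairs with β1, was low in endothelial-like cells: 2 UMIs in all endothelial-like cells, 47.4, 105, 109, 166 and 97.6 CPM in pericyte-like cells, and 65.8, 52.6 and 67.3 CPM in astroglial-like cells. Itga7 was lower in endothelial-like than in pericyte-like cells by -6.99 ± 0.64. In the 3 libraries with endothelial-like and astroglial-like cells, 0 endothelial-like Itga7 UMIs were counted. The endothelial-like level there was at least 7.37-fold below the astroglial-like one. Of the vascular classes, endothelial-like cells thus held Itga6 and Lama5, and pericyte-like cells Itga7 and Lama2. Pericyte-like minus astroglial-like Itga7 was 0.76 ± 0.379 (edgeR adjusted p = 0.0738), passed under the looser gate (1.01, edgeR adjusted p = 0.00642) and without control replicate 1 (0.80, edgeR adjusted p = 0.0456), and was -0.06 without GlastiKO replicate 2.

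Itgav, the α chain of the receptors for fibronectin, vitronectin and latent TGF-β, rose stepwise from endothelial-like (0 to 33.4 CPM, median 29.9) over pericyte-like (108, 140, 126, 128 and 48.8 CPM) to astroglial-like cells (194, 193 and 197 CPM). Endothelial-like cells were lower than pericyte-like cells by -2.03 ± 0.319 (edgeR adjusted p = 1.14e-09), and pericyte-like cells lower than astroglial-like cells by -1.28 ± 0.303 (edgeR adjusted p = 6.90e-05). The second call was narrowly lost under the stricter gate (-0.98, edgeR adjusted p = 0.0519). Itga3, a laminin receptor chain, and Itga5, the fibronectin receptor chain, were too low to test. They held 133 and 162 UMIs in endothelial-like cells (22.8 and 27.7 CPM) and 2 and 0 in the shallower pericyte-like sums (3.99 and 0 CPM). In astroglial-like cells they held 8 and 13 UMIs (1.81 and 2.94 CPM).

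Of the β chains, Itgb1, the partner of all α chains of the list, was present in every class: 314 to 477 CPM in endothelial-like cells (median 382), 677, 786, 511, 864 and 927 CPM in pericyte-like cells and 77.2, 72.1 and 99.7 CPM in astroglial-like cells. The classes did not overlap. Endothelial-like cells were lower than pericyte-like cells by -0.79 ± 0.194 (edgeR adjusted p = 0.000166) and higher than astroglial-like cells by 2.15 ± 0.249 (edgeR adjusted p = 4.60e-17).

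The αv partners β5 and β8 were left to the other classes. Itgb5 was at 189, 210, 335, 262 and 293 CPM in pericyte-like cells and 90.8, 82.5 and 78.1 CPM in astroglial-like cells, but 8 UMIs were counted in all endothelial-like cells. The endothelial-like difference from pericyte-like cells was -7.37 ± 0.408. In the 3 libraries with endothelial-like and astroglial-like cells, 0 endothelial-like Itgb5 UMIs were counted. The endothelial-like level there was at least 10.6-fold below the astroglial-like one. Pericyte-like exceeded astroglial-like cells by 1.08 ± 0.29 (edgeR adjusted p = 0.000504), which was 0.74 without GlastiKO replicate 2 (edgeR adjusted p = 0.174). Itgb8 (chromosome 12, 119158022 to 119238802), whose αvβ8 pair activates latent TGF-β, was at 277, 301 and 323 CPM in astroglial-like cells, with 1 UMI in endothelial-like and 0 in pericyte-like cells. The endothelial minus astroglial difference was -7.06 ± 0.6 (edgeR adjusted p = 8.24e-31; DESeq2 -8.07, adjusted p = 0.112) and pericyte-like cells were at least 22.9-fold lower (edgeR adjusted p = 1.08e-24; DESeq2 adjusted p = 0.189). Itgb4, the partner of α6 in hemidesmosomes, had 20, 1 and 3 UMIs in endothelial-like, pericyte-like and astroglial-like cells (3.425, 2.0 and 0.679 CPM).

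Dag1, the gene of dystroglycan, which holds the α2 laminins, was at 92 to 147 CPM in endothelial-like cells (median 126), 291, 542, 419, 563 and 390 CPM in pericyte-like cells and 284, 272 and 229 CPM in astroglial-like cells. Every endothelial-like sum was below every other sum. It differed by -1.67 ± 0.215 from pericyte-like cells (edgeR adjusted p = 6.91e-14) and from astroglial-like cells by -1.37 ± 0.252 (edgeR adjusted p = 1.62e-07). Pericyte-like minus astroglial-like was 0.30 ± 0.235, short of the threshold (edgeR adjusted p = 0.269). The lack of Lama2 RNA in endothelial-like cells thus stood beside their lowest Dag1 level among the 3 classes.

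**Figure D3:**
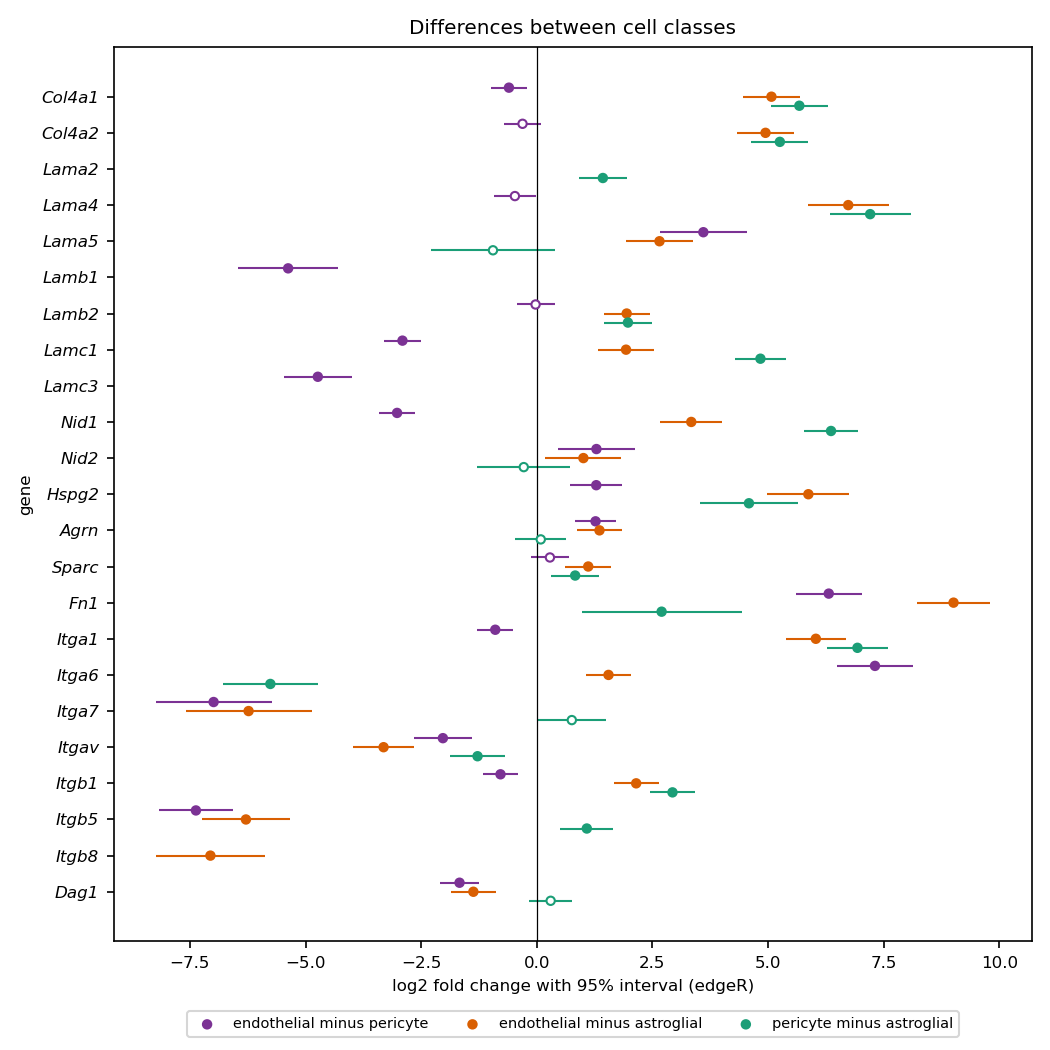
Log2 differences between classes from edgeR with 95% intervals for the tested genes of the list, filled where the adjusted p was under 0.05. No point is drawn where a class held no UMI of the gene in any library, since its fitted value is not a bound, nor for Itgb8 between the vascular classes. Endothelial minus astroglial Itga7 and Itgb5 and pericyte minus astroglial Itga6 are drawn. For these the vascular class held 0 UMIs in the libraries with both classes, so the points are not bounds either. Fn1 and Itga6 lie far to the right for endothelial minus pericyte, and Lamb1, Lamc3, Nid1, Itga7 and Itgb5 to the left.

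A further 7 lists of matrix and adhesion genes were read in the same fit, and the counts are given beside the shares above. Of 26 further basement membrane proteins 7 were tested, and endothelial-like exceeded pericyte-like cells in 5 and fell below in 2. Vwa1 (877 to 1079 CPM), Hmcn1 (559 to 1230 CPM) and Egfl7 (1123 to 1966 CPM), an endothelial secreted factor, were at most 40.6 CPM in any pericyte-like sum. Egflam, the gene of pikachurin, a dystroglycan ligand, was lower in endothelial-like than in pericyte-like cells by -3.16 ± 0.324 (edgeR adjusted p = 2.48e-21), with 16.7 to 50.9 against 97.6 to 307 CPM. Of 11 further integrin chains Itga4 alone was tested, and it was lower in endothelial-like (50.9 to 88.9 CPM) than in pericyte-like cells (201 to 927 CPM) and at most 1.09 CPM in astroglial-like cells.

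Of 21 collagen folding and crosslinking enzymes 11 were tested, and 2 were higher and 4 lower in endothelial-like than in pericyte-like cells. The collagen chaperone Serpinh1 (50.9 to 234 against 385 to 612 CPM) and the prolyl hydroxylase P4ha1 (23.4 to 52.4 against 75.4 to 160 CPM) were among the lower ones. Of 22 integrin adaptors 17 were tested. In endothelial-like against pericyte-like cells 3 were higher and 11 lower: the parvin Parvb was at 203 to 326 CPM in endothelial-like cells and at 0 in pericyte-like cells, and vinculin (Vcl) at 83.7 to 203 against 360 to 586 CPM. Of the dystroglycan complex and its glycosylation enzymes 8 of 20 were tested, and 1 was higher and 4 were lower in endothelial-like than in pericyte-like cells. Dystrophin (Dmd) was at 0 to 23.4 against 521 to 687 CPM, and utrophin (Utrn), its homologue, at 841 to 1347 against 413 to 620 CPM. Against astroglial-like cells, where dystrobrevin α (Dtna) stood at 792 to 1142 CPM, 2 of the 8 were higher and 6 lower in endothelial-like cells.

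Of 20 proteases and inhibitors 11 were tested, with 5 higher and 2 lower in endothelial-like than in pericyte-like cells. Mmp14, a membrane-bound collagenase, was at 0 to 1.9 against 25.1 to 146 CPM, and Timp4 stood at 212 to 319 CPM in astroglial-like cells and at 0 in endothelial-like cells of the same libraries. Of 16 other matrix receptors 12 were tested, with 2 higher and 6 lower in endothelial-like than in pericyte-like cells. The syndecan Sdc2 was at 0 to 0.635 against 394 to 732 CPM. The glypican Gpc5 stood at 229 to 259 CPM in astroglial-like cells and at 0 in pericyte-like cells.

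Between groups, no tested gene of the list was called in endothelial-like cells. Of 20 list genes among 8712 tested, 0 passed in either comparison with control (edgeR, 2 libraries per group), where 0.344% of all genes were called for the libraries labelled GlastiKO (0.0918% higher, 0.253% lower) and 0.275% for those labelled ECiKO (0.0344% higher, 0.241% lower). DESeq2 called 0 as well. At an unadjusted p under 0.05 there were 1 and 0. The median log2 change was 0.09 for GlastiKO and -0.06 for ECiKO, beside 0.00 and -0.03 over all genes. The median half-width of the 95% interval, before any adjustment, was 0.581 and 0.626. Changes of that size in a typical member would not have been told from none. After adjustment over all tested genes, larger changes could be missed as well. For Col4a1 the GlastiKO change was 0.08 with an interval from -0.49 to 0.66, and the ECiKO change -0.10 with one from -0.70 to 0.50. Both comparisons share the control libraries. The endothelial-like cells of ECiKO replicate 2 were shallow, with a median of 1008 UMIs per cell against 2352.5 to 3485 in the other libraries.

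Nid2 came closest. It was at 49.8 and 25.1 CPM in control, 99.1 and 65.5 CPM in GlastiKO and 44.5 and 76.3 CPM in ECiKO endothelial-like cells. Both GlastiKO libraries exceeded both control libraries, as in 28.9% of all genes in 1 direction or the other, while the ECiKO libraries overlapped control. The GlastiKO change of 0.97 ± 0.344 missed the threshold (edgeR adjusted p = 0.796). Without control replicate 1 it was 1.94 and without GlastiKO replicate 1 it was 0.41. Of the 20 genes, 4 stood higher (Col4a2, Lamb2, Lamc1 and Nid2) and 2 lower (Lama4 and Itga1) without overlap in GlastiKO. In ECiKO 1 stood higher (Itga1) and 0 lower, where 29.8% of all genes did not overlap.

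**Figure D4:**
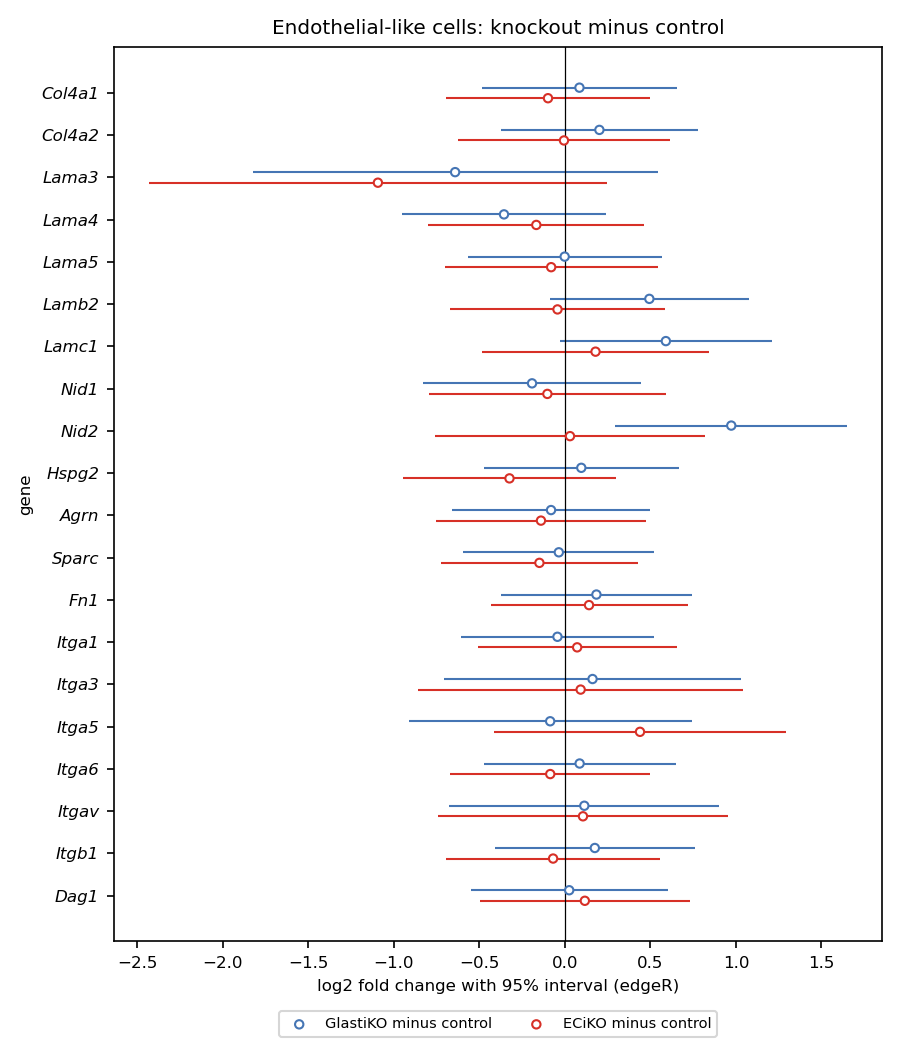
Log2 change with 95% interval (edgeR) of the 20 tested list genes in endothelial-like cells, for the libraries labelled GlastiKO (blue) and ECiKO (red) against control. Open points did not pass, which holds for all 40 values, and the Nid2 interval for GlastiKO is the only one that does not cross 0.

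Of the further lists, 1 gene was called in endothelial-like cells between groups. Adamts9, a secreted protease, was at 19.4 and 41.8 CPM in control, 111 and 18.7 CPM in GlastiKO and 22.2 and 0 CPM in ECiKO. Its GlastiKO change of 1.95 ± 0.404 (edgeR adjusted p = 0.00105) came with overlapping libraries and rested on GlastiKO replicate 1, without which it was not tested. Leaving out control replicate 1 gave 1.13 (edgeR adjusted p = 0.998), and DESeq2 did not call it. It falls outside the naming rule and was picked after its values were seen.

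Col15a1 was the list gene whose call depended on a setting. It had 73 and 1 UMIs in the control endothelial-like sums, 2 and 0 in GlastiKO and 0 and 0 in ECiKO, and was too low for the filter. Without a filter it was called lower in GlastiKO (edgeR adjusted p = 0.00129) and in ECiKO (edgeR adjusted p = 0.000529), and likewise without control replicate 2, GlastiKO replicate 2 or ECiKO replicate 2, when the filter let it pass. All 73 UMIs of control replicate 1 came from 33 cells that held at least 2 of Plvap, Esm1 and Igfbp3, genes of fenestrated and sprouting endothelium. Only 1 such cell was in control replicate 2, 1 in GlastiKO replicate 1 and 0 in the other libraries.

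Within control replicate 1 these 33 cells had a matrix profile of their own. This is 1 library, so the values carry counting intervals and no test, and the cells were singled out with results known. Col4a1 stood at 1424 CPM against 527 CPM in the other endothelial-like cells, a ratio of 2.70 (95% exact interval 2.36 to 3.09), and Col4a2 at 989 against 259 CPM, a ratio of 3.81. Hspg2 was 6.76 times higher (940 against 139 CPM), Nid1 5.78 times (313 against 54.3 CPM) and Lama3 6.92 times (104 against 15.1 CPM). Fn1 ran the other way, at 38.5 against 989 CPM, a ratio of 0.0389 (0.0156 to 0.0803). Agrn had a ratio of 0.124, Itga6 of 0.22 and Lama5 of 0.378. The genes that marked ordinary endothelial-like cells in the list were thus lower in these cells, with the exceptions of Hspg2, which was higher, and Nid2, whose ratio of 1.74 had an interval from 0.945 to 2.99. Itga1 (0.908) and Itgb1 (1.06) had intervals that included 1.

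**Figure D5:**
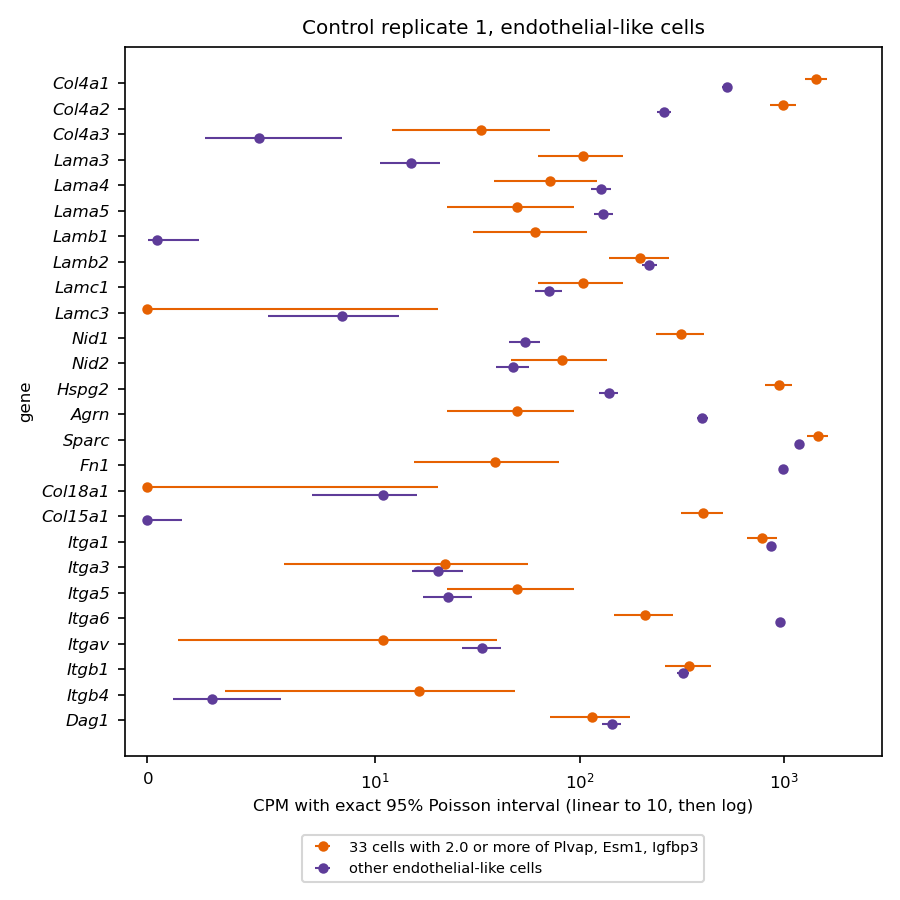
CPM of list genes with at least 10 UMIs in the endothelial-like cells of control replicate 1, in its 33 cells that held at least 2 of Plvap, Esm1 and Igfbp3 (orange) and in the other cells (purple), with 95% exact Poisson intervals. The axis is linear up to 10 CPM and logarithmic above. Col15a1, Lamb1, Hspg2 and Nid1 lie to the right in the 33 cells and Fn1, Agrn and Itga6 to the left.

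In pericyte-like cells no gene at all was called between groups (edgeR, 19 list genes among 3769 tested, 0% called). ECiKO enters with 1 library of 10 cells, which is assumed to vary like the other groups. Before adjustment, 121 genes for GlastiKO and 302 for ECiKO had a p under 0.05, of which 1 (Itga7) and 2 (Lama4 and Agrn) were on the list, and DESeq2 called 0 list genes. The list's changes ran from -0.17 to 1.11 in GlastiKO (median 0.30, all genes 0.01) with a median interval half-width of 0.648. Libraries of 3 list genes stood higher and of 0 lower without overlap in GlastiKO, beside 30.7% of all genes. With its single library ECiKO gave 6 and 7, beside 80.5%. In ECiKO the half-width was 1.27, so these sums show little about single genes.

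In astroglial-like cells each group has 1 library, so there is no test and no replicate check. Of the list, 12 genes had at least 100 UMIs in the GlastiKO and control sums together, and 11 of them kept within 1.5-fold of control, where 10.6% of all such genes did not. For ECiKO it was 10 of 11, beside 13% of all such genes. Itgb8 had a ratio of 1.09 in GlastiKO (95% exact interval 0.970 to 1.23) and 1.17 in ECiKO (0.950 to 1.43), Dag1 of 0.957 and 0.806, Lama2 of 1.17 and 1.19, and Itgav of 0.996 and 1.01. Under 100 UMIs, 3 list genes differed by over 1.5-fold with a counting interval that excluded 1. Lama3 had ratios of 2.89 (1.53 to 5.84) in GlastiKO and 3.43 (1.30 to 8.68) in ECiKO, from 13 UMIs in control. Nid1 had a ratio of 0.290 (0.112 to 0.672) and Nid2 of 1.82 (1.14 to 2.99) in GlastiKO. These 3 were picked after their values were seen. Their levels by kind of astroglial-like cell are given below.

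Sparc, the remaining gene with at least 100 UMIs, fell outside the 1.5-fold range, with 1321 CPM in control, 351 CPM in GlastiKO and 488 CPM in ECiKO, ratios of 0.266 (0.245 to 0.288) and 0.369 (0.316 to 0.430). Agt, a gene of astrocytes in some brain regions, moved the same way, with 1888, 533 and 873 CPM, and Lhx2, a transcription factor of forebrain astroglia, the opposite way, with 106, 259 and 226 CPM. In cells with Agt or Slc6a11 but no Lhx2 the Sparc ratios were 0.442 and 0.480. In cells with both kinds they were 0.879 and 1.37, at levels of 118, 103 and 161 CPM. The former cells made up 76.3%, 46.7% and 54.8% of the class in control, GlastiKO and ECiKO. Detection depends on depth, and the median astroglial-like cell held 3769.5, 4605 and 938.5 UMIs in control, GlastiKO and ECiKO. Cells with none of Agt, Slc6a11 and Lhx2 made up 6.2%, 5.4% and 24.4%. The ECiKO share and its ratios by kind of cell therefore cannot be read beside those of the other libraries. The part of the mixture of kinds of cell in the Sparc ratios was not tested. This split was made after the values were seen.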

How the data were processed

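Single-cell 3′ libraries (10x, version 3.1 chemistry, per the labels) were deposited as raw UMI counts per gene and barcode. The file headers and labels name Cell Ranger 5.0.0 and mm10, while the submitters' processing notes name Cell Ranger 2.1.1 and Seurat 4. How the 2 versions were divided is not given in the sources used here. Deposited counts were used as they stand, and the 7433 barcodes equal the labelled cell numbers.

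Cells with at least 300 genes and at most 20% mitochondrial UMIs were kept. A cell took the class with most distinct marker genes, if at least 3 and at least 2 times those of the next class, which leaves out cells with markers of 2 classes. Scrublet (scanpy 1.11.5) marked 49 cells (0.775%), which were kept and left out in an alternative. Counts were summed per library and class with at least 10 cells and tested with edgeR 4.0.16 (quasi-likelihood, TMM, filterByExpr, R 4.3.3), adjusted over all tested genes at 0.05. The procedure was first run on simulated data. Only genes of at least 20 CPM were changed there. For ECiKO minus control the procedure recovered 30% of 2-fold and 87% of 4-fold changes, with a slightly smaller spread simulated than the data gave. For endothelial minus astroglial it recovered 5% and 52%, with a larger spread simulated than the data gave. Many 2-fold changes can thus be missed. Class comparisons had the library as a block, and group comparisons had the group as the only term. A class without UMIs of a gene was given a floor of 3 UMIs over the libraries compared. In astroglial-like cells, ratios of 1.5-fold with at least 100 UMIs were counted. Intervals are 95% exact and cover counting error only. DESeq2 1.42.0, other scaling, filters, gates and left-out libraries were alternatives.

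Every gene of the list is described, in full where it passed. Of each further list up to 4 genes per direction were eligible for naming: passed, a mean of at least 20 CPM, and classes without overlap, by size. The list, the further lists and the Plvap, Esm1 and Igfbp3 cells were chosen with earlier results of these data known. Positions are from GENCODE M21, and promoters from RefSeq (23 of 34 genes had an entry). Protein sequences were not used here.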

Additional observations from a re-analysis of the deposited data

How the results depend on the processing

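Of the log2 differences of single list genes between classes under the alternatives, 421, 404 and 414 kept direction and side of the threshold (endothelial-astroglial, endothelial-pericyte and pericyte-astroglial), and 13, 3 and 8 lost the call. A call was gained by 4 values for endothelial-pericyte and 4 for pericyte-astroglial. Signs turned for 6 genes, none of which passed in the comparison concerned. For endothelial minus pericyte, Lamb2 became 0.0675 without a filter and 0.0784 under the stricter gate and ran from -0.176 to 0.00417 when 1 library was left out, and Sparc -0.16 with a minimum of 20 cells. For pericyte minus astroglial, Nid2 became 0.0212 with class as the only term, and Agrn -0.0446 with RLE scaling, -0.0894 with DESeq2 and -0.0199 within the libraries numbered 2. When 1 library was left out, Agrn ran from -0.144 to 0.215, Itga7 from -0.0553 to 1.004 and Dag1 from -0.00253 to 0.388, the lowest without control replicate 2 for Agrn and without GlastiKO replicate 2 for the others. The cause was not tested. All genes called for endothelial minus pericyte fell from 2849 to 1528 within the libraries numbered 2. Leaving out 1 library gave 5 to 6 list genes higher and 11 to 14 lower for endothelial-pericyte, 14 to 17 and 6 to 7 for endothelial-astroglial, and 12 to 17 and 3 for pericyte-astroglial.

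In endothelial-like cells the genes called for GlastiKO numbered 30, but 2 with DESeq2, 13 with a filter of 20 CPM, 11 without the Plvap, Esm1 and Igfbp3 cells and 3 to 40 when 1 library was left out, the 3 without control replicate 1. For ECiKO they numbered 24, but 2, 12, 6 and 6 to 43 under the same settings. The list genes called lower were 0, or 1 (Col15a1) without a filter, and 0 to 1 when 1 library was left out, in both comparisons. In pericyte-like cells 0 genes were called for GlastiKO, but 3 under the stricter gate, 4 under the looser one, 1 with a minimum of 20 cells and 0 to 2 when 1 library was left out. For ECiKO they were 0, but 4 without a filter, 1 with a filter of 20 CPM, 4 under the looser gate, 3 with the 4 libraries of both groups alone and 0 to 7 when 1 library was left out. None of these was a list gene. The cause was not tested.

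Same-numbered libraries deviated together with correlations of 0.0787, 0.0451 and 0.0653, under 0.1. The endothelial-like sums numbered 2 held 39334 to 213737 UMIs, and counting noise lowers such values. The correlations therefore cannot decide whether the numbers are pairs. The number was kept out of the main fit because the labels name no shared animal, litter or day, although it went with the cell mixture. A replicate block gave 43 called genes for GlastiKO and 38 for ECiKO in endothelial-like cells, and 1 and 1 in pericyte-like cells, with 0 list genes. Nid2 was then 1.05 (edgeR adjusted p = 0.0556) and Adamts9 2.26 (edgeR adjusted p = 1.60e-08).

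The astroglial-like Sparc ratio of 0.266 for GlastiKO was 0.298 under the looser gate, and 0.442 and 0.879 in cells with Agt or Slc6a11 without and with Lhx2. The ratio of 0.369 for ECiKO was 0.572 without very deep cells, and 0.480 and 1.37 in cells with Agt or Slc6a11 without and with Lhx2. The ECiKO astroglial-like cells were shallow, so their split by detected genes cannot be read beside the other libraries. That split, the pericyte-like alternatives and the class comparisons without Plvap, Esm1 and Igfbp3 cells were added after seeing the data.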

Other observations

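Oligodendrocyte-like cells, which the sort did not aim for, held Itgb4 beside integrin chains that other classes also held. In the sums of 3 libraries (2936 cells) Itgb4 was at 126 to 139 CPM, Itgb8 at 130 to 131 CPM, Itgav at 92.4 to 117 CPM and Itgb1 at 150 to 174 CPM. Pooled Itgb8 (130.1 CPM) and Itgav (101 CPM) were below the astroglial-like levels of 293 and 194 CPM. Col4a1 was low, at 0.263 to 0.470 CPM, while Lama2 stood at 29.8 to 43.8 CPM and Lamc1 at 33.9 to 38 CPM. The level of Itgb4 contrasts with 3.425, 2.0 and 0.679 CPM (20, 1 and 3 UMIs) in endothelial-like, pericyte-like and astroglial-like cells. The difference was not tested.

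The 10 fibroblast-like cells, from 4 libraries, held chains that were scarce elsewhere. In their pooled UMIs Lama1 was at 698 CPM (95% exact interval 492 to 962, counting error only), Col15a1 at 887 CPM and Col4a5 at 623 CPM, beside Col4a1 at 887 CPM and Nid1 at 868 CPM. With 10 cells no comparison was made.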
